A study of Mus musculus with 30 samples.

Results

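Fgf5, Otx2, Pou3f1 and Fgf15 are genes of the primed epiblast, the pluripotent cells of the mouse embryo shortly after implantation. The rows of the deposited table that carry these 4 symbols were read, 4 of 20563 genes, over all 30 columns. The study sequenced RNA of mouse embryonic stem cells, kept with the cytokine LIF on gelatinised plates (day 0), and of embryoid bodies, aggregates grown from them without LIF, at day 4 and day 8. Of 5 lines, 3 form the Pali set, its wild type, the Pali1 knockout (Pali1-/-) and the double knockout (Pali1-/-, Pali2-/-), and the other 2 are C129 wild type and the Aebp2 gene trap (Aebp2gt/gt). Each line was sampled in duplicate at each time. The Lcor and Lcorl loci encode PALI1 and PALI2. These proteins and AEBP2 bind Polycomb repressive complex 2 (PRC2), the enzyme that places the silencing methyl mark on histone H3. The comparisons ask how expression before and during differentiation differs when such a partner is lost. Every library of a mutant line carries its mutation at all 3 times. How many clones stand behind a genotype is not stated in the labels, so tests measure the spread between the labelled biological duplicates and not between clones.

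Embryonic stem cells in LIF resemble the naive epiblast before implantation. When LIF is withdrawn, naive genes such as Zfp42 are switched off, and cells pass through a formative and then a primed state while Pou5f1 stays on. Signalling by fibroblast growth factors through ERK drives this step. Fgf5 and Fgf15 are secreted fibroblast growth factors, and Otx2 and Pou3f1 (also known as Oct6) are homeodomain transcription factors. Of the 4, Fgf5 is the classical marker of the primed epiblast, while Otx2, Pou3f1 and Fgf15 are also used later in neural tissue: Otx2 in the forebrain and midbrain, Pou3f1 in neural progenitors and Schwann cells, and Fgf15 in the neural tube and, as an endocrine signal that lowers bile acid synthesis, in the ileum.

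On GRCm38, with GENCODE M21 models, Fgf5 lies on chromosome 5 from 98254184 to 98277030 on the plus strand, with 3 exons in its longest coding transcript. Otx2 lies on chromosome 14 from 48657677 to 48673819 on the minus strand, with 6 exons. Pou3f1 is a gene of 1 exon on chromosome 4, from 124656807 to 124660655 on the plus strand, and Fgf15 has 3 exons and lies on chromosome 7 from 144896531 to 144900953 on the plus strand. Silent genes bound by PRC2 usually have promoters rich in the dinucleotide CG, and the promoters of Fgf5 and Otx2, the 2 members with a RefSeq promoter entry (GRCm38.p6), are shown for that reason. The 250 bases before the Fgf5 start site (chr5:98253934-98254183, plus strand) hold 24 CG, in capitals, against a median of 6 in 32851 promoters of the same length, and 12.0% of promoters hold as many or more.
Fgf5 promoter: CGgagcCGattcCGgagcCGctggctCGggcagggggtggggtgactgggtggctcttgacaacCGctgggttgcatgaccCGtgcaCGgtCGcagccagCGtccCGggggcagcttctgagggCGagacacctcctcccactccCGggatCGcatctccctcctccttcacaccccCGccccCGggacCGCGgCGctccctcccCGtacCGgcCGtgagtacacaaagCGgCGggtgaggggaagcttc
Otx2 has 4 listed start sites, whose windows hold 6, 8, 14 and 9 CG. The window with 14 (chr14:48665110-48665359, minus strand) holds the only match to GGATTA, in capitals, the reverse complement of TAATCC, the DNA word that homeodomains of the OTX family prefer.
Otx2 promoter: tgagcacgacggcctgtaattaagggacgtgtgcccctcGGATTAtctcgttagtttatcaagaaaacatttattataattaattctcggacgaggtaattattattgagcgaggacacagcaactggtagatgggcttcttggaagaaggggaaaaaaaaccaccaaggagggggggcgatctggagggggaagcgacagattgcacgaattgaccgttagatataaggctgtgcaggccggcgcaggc
Either orientation of that word occurs in 6.25% of all promoters of this length, and the Fgf5 window holds none. A match is only a description of these letters.

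Libraries summed to between 15470082 and 18336791 normalised counts, from an estimated 13198300 to 28151900 reads. Aebp2 lay between 17.1 and 66.4 in the 6 gene trap libraries and between 1232 and 2784 in the other 24, while Lcor and Lcorl transcripts were present in all libraries (41.4 to 133 and 294 to 858), so RNA levels do not check the Pali labels. The stem cell marker Pou5f1 ran from 19672 to 23514 at day 0. Pali wild type duplicates differed in the summed level of 14 extraembryonic endoderm genes, with 393 and 5517 at day 4 and 837 and 13744 at day 8. In the other lines these sums ran from 172 to 1287 at day 4 and from 1458 to 6736 at day 8. The part of this difference in the member values was not tested. The descriptions of 2 double knockout libraries, replicate 1 of day 0 and of day 4, give a culture state that goes against their titles. The summed level of 16 naive genes followed the titles, with 60091 and 51427 in the double knockout at day 0 and 15539 and 15517 at day 4. Values without these libraries are given below where they differ in call.

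The 4 genes rose from day 0 to day 4 in every line. All 20 tests, 4 genes in 5 lines, passed the threshold of an adjusted p of 0.05 (limma on log2(value + 4), Benjamini-Hochberg adjustment over 15712 genes), where 27.3% of all tested genes were called in either direction in Pali wild type, 30.5% in the Pali1 knockout, 27.5% in the double knockout, 29.1% in C129 wild type and 30.6% in the gene trap. Pou3f1 in the double knockout rested on all 4 of its libraries, at a log2 rise of 1.20 (adjusted p of 0.0149) that was lost when any 1 was left out (0.0564 to 0.0742). These tests and all below use the spread of 30 libraries in 15 groups, and the fold changes of low genes are understated by the added 4. In bulk RNA, more cells that express a gene and more RNA per cell cannot be told apart.

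Fgf5, the ligand that marks the primed epiblast, was near the floor in stem cells. In Pali wild type it measured 4.52 and 5.51 normalised counts at day 0, 2752 and 3140 at day 4, and 537 and 1346 at day 8. The Pali1 knockout gave 16.6 and 12.3, then 2216 and 2207, then 1297 and 839. In the double knockout the values were 58.6 and 60.0, 2267 and 2130, and 911 and 1863. Day 0 libraries of the double knockout were thus the highest of the 10 at that time, and the day 8 duplicates of both this line and the wild type were far apart. C129 wild type gave 18.2 and 16.6, 1739 and 1635, and 647 and 163. The gene trap gave 15.5 and 4.75, 2011 and 2016, and 917 and 947. The rise to day 4 was 588-fold in Pali wild type, 153-fold in the Pali1 knockout, 37.1-fold in the double knockout, 97.0-fold in C129 wild type and 198-fold in the gene trap, as ratios of means. These ratios rest on few reads at day 0, an estimated 4.12 to 91.8 per library.

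Otx2, the transcription factor that drives exit from the naive state, was already well above the floor in stem cells. Pali wild type libraries held 181 and 120 at day 0, 1981 and 2082 at day 4, and 1581 and 2830 at day 8. The corresponding values were 533 and 428, 2090 and 2208, and 2533 and 2770 in the Pali1 knockout, and 664 and 586, 1922 and 1630, and 2013 and 2426 in the double knockout. The 2 Pali wild type libraries were the lowest of the 10 at day 0. C129 wild type held 532 and 413, 3164 and 2867, and 1884 and 2522. The gene trap held 694 and 508, 5383 and 4966, and 2926 and 2467. Its day 4 libraries were the highest of all 30 for this gene. The rise to day 4 ranged from 2.84-fold in the double knockout to 13.5-fold in Pali wild type.

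Pou3f1, the POU domain factor, had the narrowest range of the 4, with a ratio of 13.2 between the highest and the lowest group mean. Pali wild type gave 69.05 and 113 at day 0, 818 and 1081 at day 4, and 288 and 696 at day 8. The Pali1 knockout gave 73.2 and 105, 1009 and 1134, and 418 and 347. The double knockout stood apart at day 0, at 470 and 457, while its values of 1104 and 1036 at day 4 and 422 and 534 at day 8 lay among those of the other lines. C129 wild type gave 88.1 and 135, 1000 and 887, and 293 and 202, and the gene trap 113 and 66.1, 1074 and 1273, and 478 and 552. In 4 of the 5 lines the day 0 level lay between 66.1 and 135, and in the double knockout the level at day 8 overlapped that at day 0.

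Fgf15, the other ligand, had its highest level at day 4 in some lines and at day 8 in others. Pali wild type held 51.5 and 127 of it at day 0, then 418 and 663 at day 4, and 532 and 752 at day 8. The Pali1 knockout went from 167 and 227 to 573 and 765 and then to 1518 and 1709, and the double knockout from 222 and 210 to 498 and 711 and then to 1739 and 1492. Both knockouts thus reached their highest level at day 8. C129 wild type held 311 and 386, then 1398 and 914, then 1201 and 929. The gene trap peaked at day 4, with 196 and 196, then 942 and 1138, then 231 and 276.

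**Figure D1:**
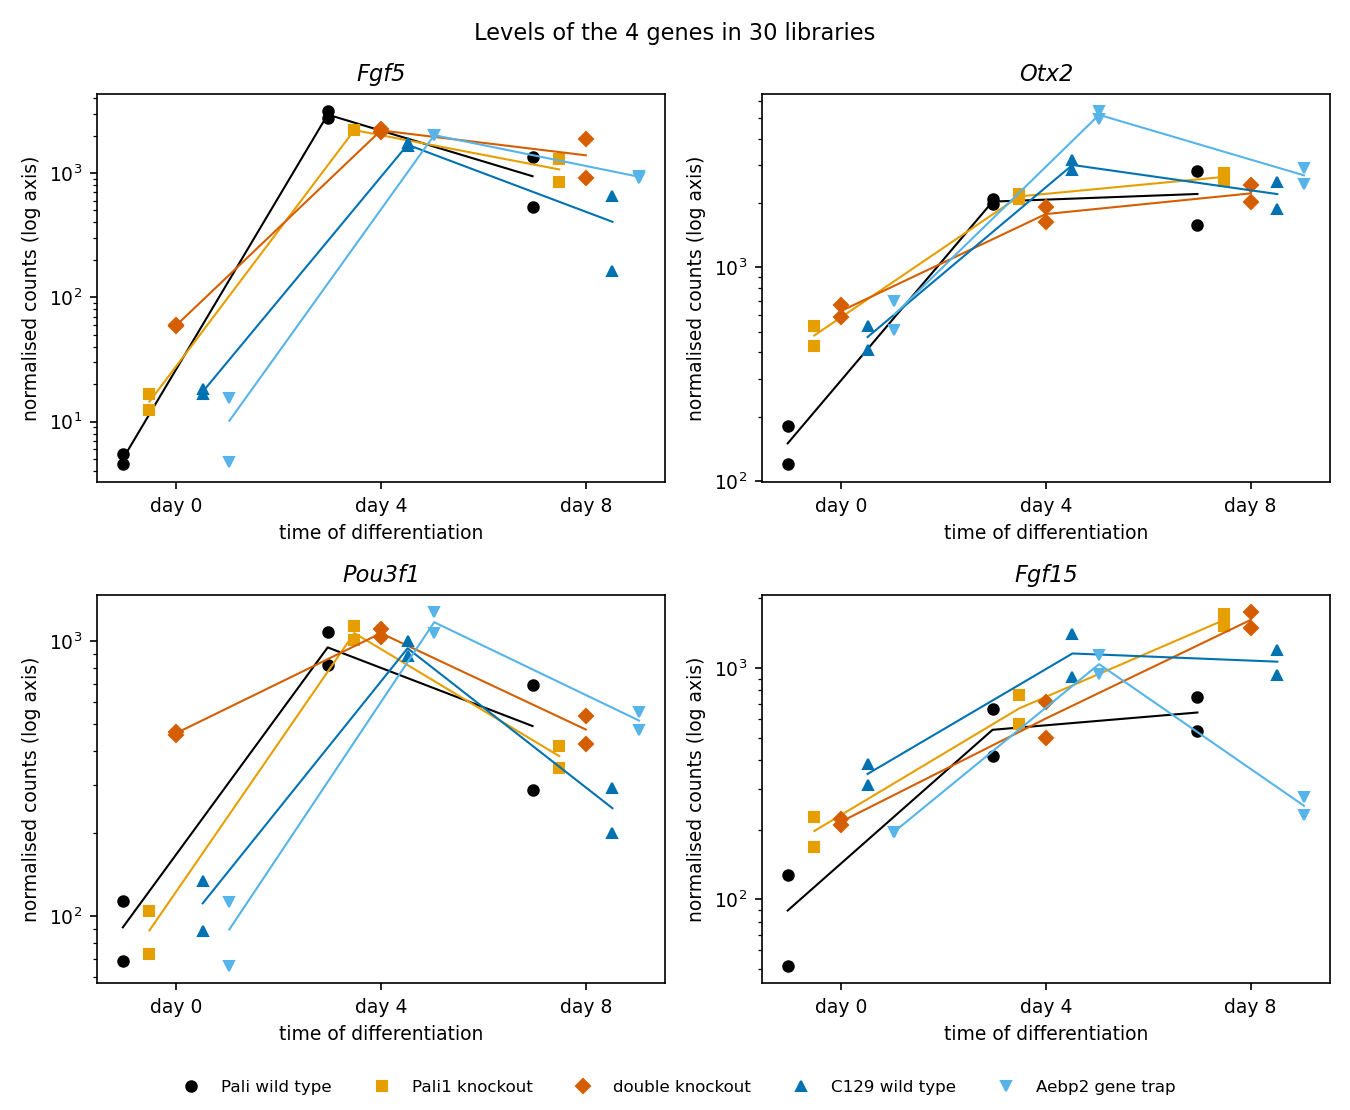
Normalised counts (log axis) of the 4 genes at day 0, 4 and 8, with 1 panel per gene, 1 point per library and lines through the means of the 2 libraries. Every line rises from day 0 to day 4 for all 4 genes, and the double knockout starts highest for Fgf5 and Pou3f1. Fgf15 at day 8 runs from 231 in the gene trap to 1739 in the double knockout, and both knockouts overlap.

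Per kilobase of the longest transcript, the median day 4 levels of the 10 libraries were 867 for Fgf5, 829 for Otx2, 274 for Pou3f1 and 408 for Fgf15. At day 0 the medians per kilobase were 6.43, 201, 28.3 and 112 in the same order. Over single libraries the day 4 levels per kilobase ran from 654 to 1256 for Fgf5 and from 629 to 2077 for Otx2, which overlap, while those at day 0 ran from 1.81 to 24.0 and from 46.2 to 268, which do not. The highest group mean exceeded the lowest 588-fold for Fgf5, 34.4-fold for Otx2, 13.2-fold for Pou3f1 and 18.1-fold for Fgf15. With the 15 groups ordered by mean, the values of 8 of the 14 pairs of neighbours overlapped for Fgf5, Otx2 and Fgf15 each, and those of 10 of 14 for Pou3f1. Across the 15 group means on the log2 scale, Fgf5 and Pou3f1 were the most alike pair (Pearson r = 0.930) and Pou3f1 and Fgf15 the least (r = 0.616), where groups share lines and times and so are not independent.

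Other genes of the same stage were read at day 4 against day 0. Of all tested genes, 13.6% to 15.7% were called higher and 12.7% to 15.3% lower, depending on the line. Of 25 other primed and formative genes, 11 were higher and 4 lower at day 4 in Pali wild type, with a median log2 change of 0.70 beside 0.02 over all tested genes; without replicate 1 of day 0 the count of higher genes was 7, the lowest of the alternatives. The transcription factor Sall2 rose by 4.08, the kinase gene Pim2 by 4.12 and the de novo DNA methyltransferase gene Dnmt3b by 2.24 on the log2 scale (limma, adjusted p of 3.54e-09, 1.87e-06 and 0.000195). Among those lower was Tdgf1, a coreceptor of NODAL, at -2.34 (adjusted p of 3.72e-05). In the other lines 13 rose and 6 fell in the Pali1 knockout, 11 and 5 in the double knockout, 13 and 4 in C129 wild type, and 16 and 5 in the gene trap. Naive genes went the other way, with 15 of 16 lower in each of the Pali lines and 14 of 16 in C129 wild type and the gene trap, and none higher.

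Other genes of the FGF pathway were read at the same step, in which 27.3% to 30.6% of all genes were called. Of 8 other tested FGF ligands, 0 rose and 3 fell at day 4 in Pali wild type, and 1 rose and 2 to 4 fell in each of the other lines. Fgf4, the ligand that stem cells themselves secrete, was among them and fell by 2.12 on the log2 scale (limma, SE 0.241, adjusted p of 4.98e-06). Of 7 FGF receptors and coreceptors, 0 passed the limma test at day 4 in any of the 5 lines, 35 tests of which 2 had an unadjusted p under 0.05. The mean summed level of the 7 was higher at day 4 than at day 0 in each line, at 775 against 232 in Pali wild type, 513 against 182 in the Pali1 knockout, 993 against 366 in the double knockout, 491 against 97.3 in C129 wild type and 493 against 146 in the gene trap. Some duplicates were far apart, such as 58.0 and 306 in the Pali1 knockout at day 0. In the gene trap, the sums of 164 and 823 at day 4 overlapped those of 175 and 118 at day 0. In the other lines the libraries of the 2 times did not overlap. Of 13 feedback genes of FGF and ERK signalling, 2 rose and 3 fell in Pali wild type, and 3 or 4 rose and 2 fell in each of the others.

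From day 4 to day 8 calls went in both directions. Of 20 tests 9 passed, 7 lower and 2 higher, with none in Pali wild type (2 of its 4 had an unadjusted p under 0.05), and all 5 lines had a mean of Fgf5 and of Pou3f1 below that of day 4. Pou3f1 passed the test in 4 lines, with log2 changes of -1.48 in the Pali1 knockout, -1.17 in the double knockout, -1.94 in C129 wild type and -1.18 in the gene trap (limma, adjusted p of 0.00791, 0.0467, 0.000391 and 0.0434). Of these, the C129 call held under every alternative. The double knockout and gene trap calls ended without the low-value filter (0.0562 and 0.0548) and without trend or robust estimation (0.0552 and 0.0539). Both also ended with the libraries of the compared lines alone (0.0692 and 0.0735), and the double knockout call with a pseudocount of 1 (0.0542). Leaving out any 1 of the 4 libraries ended the call in the double knockout (adjusted p of 0.0949 to 0.278) and in the gene trap (0.0782 to 0.244), and leaving out replicate 2 of day 4 or of day 8 ended it in the Pali1 knockout (0.0650 and 0.0827). Fgf5 was called in C129 wild type, at -2.36 (SE 0.506, adjusted p of 0.00174), and not without replicate 2 of day 8, at -1.38 (adjusted p of 0.0545). Without replicate 2 of day 8 in Pali wild type, Fgf5 was called there too, at -2.44 (adjusted p of 0.0277, against -1.78 and 0.0717 with all libraries), and so was Pou3f1, at -1.69 (0.0119). Fgf5 in this line also passed with a pseudocount of 16 (0.0459) and with the Pali libraries alone (0.0392). With all libraries Fgf5 stood at 31.9% of its day 4 mean in Pali wild type, 48.3% in the Pali1 knockout, 63.1% in the double knockout and 46.3% in the gene trap. All tested genes were called in 2.81% of cases in Pali wild type, 14.5% in the Pali1 knockout, 7.95% in the double knockout, 30.8% in C129 wild type and 8.0% in the gene trap.

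Otx2 passed the test in 1 line. Its day 8 mean was 109% of day 4 in Pali wild type, 123% in the Pali1 knockout, 125% in the double knockout and 73.1% in C129 wild type, none of them called (limma, adjusted p of 0.966, 0.464, 0.508 and 0.161). In the gene trap it fell to 52.1%, a log2 change of -0.94 (SE 0.240, adjusted p of 0.0211). That call was lost when any 1 of the 4 libraries was left out (adjusted p of 0.0695 to 0.137). Fgf15 rose further in both Pali mutants, with log2 changes of 1.28 and 1.43 (SE 0.332, adjusted p of 0.0150 and 0.0119). The single knockout call was lost without replicate 1 of day 4 or replicate 2 of day 8 (adjusted p of 0.120 and 0.112), and the double knockout call without replicate 1 of either day (0.139 and 0.108). Fgf15 fell in the gene trap by 2.02 (adjusted p of 0.00133), a call kept under all alternatives. In the 2 wild types its log2 changes were 0.26 and -0.10. Set directly against the change in Pali wild type, neither rise in the Pali mutants was called. The fall in the gene trap, set against the change in C129 wild type, was called.

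**Figure D2:**
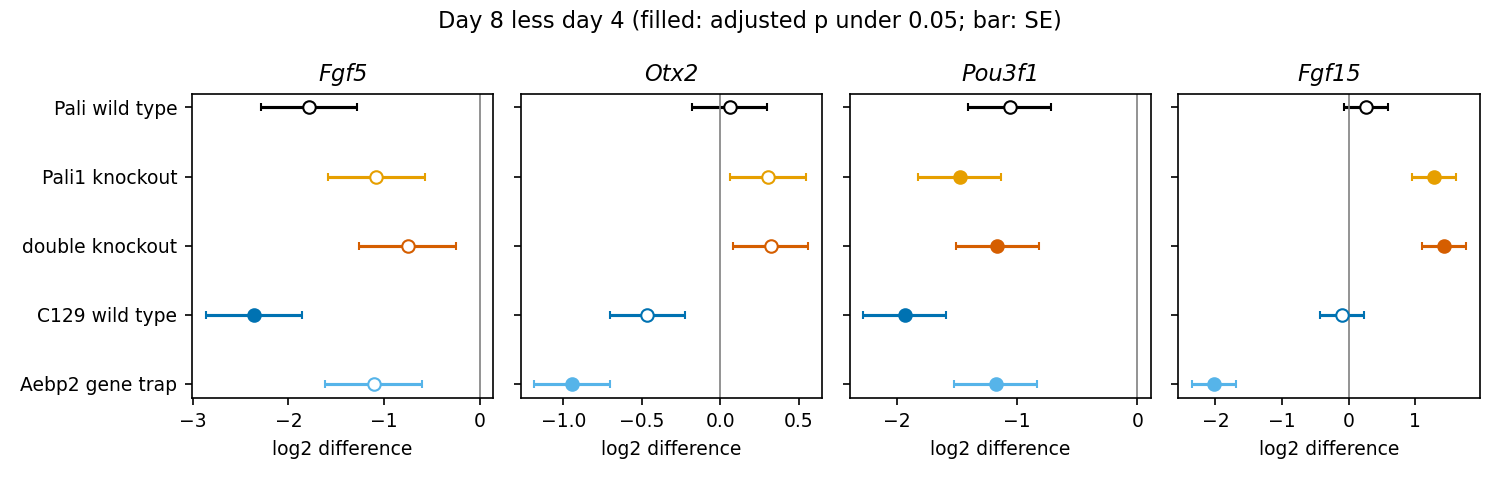
Log2 difference of day 8 less day 4 for each gene (panels) in each line (rows), with bars of 1 SE, filled where the adjusted p is under 0.05. Fgf5 and Pou3f1 lie left of 0 in all 5 lines, and Fgf15 lies right of 0 in both knockouts and left of 0, at -2.02, in the gene trap.

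At day 8 most members still stood above stem cell level. Of 20 tests against day 0, 18 passed, all higher, where 25.8% of all genes were called in Pali wild type, 42.1% in the Pali1 knockout, 30.9% in the double knockout, 45.8% in C129 wild type and 31.3% in the gene trap. The 2 exceptions were Pou3f1 in the double knockout, with a log2 change of 0.03 (SE 0.346, limma adjusted p of 0.972), and Fgf15 in the gene trap, at 0.36 (SE 0.332, adjusted p of 0.464). Pou3f1 in C129 wild type, at 1.13, was lost without replicate 1 of day 8 or of day 0 (adjusted p of 0.116 and 0.136).

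In stem cells, before differentiation, all 4 genes were higher in the double knockout than in Pali wild type. The log2 differences were 2.81 for Fgf5 (SE 0.506, limma adjusted p of 0.00360), 2.05 for Otx2 (SE 0.240, adjusted p of 0.000128), 2.34 for Pou3f1 (SE 0.346, adjusted p of 0.000761) and 1.37 for Fgf15 (SE 0.332, adjusted p of 0.0263), in a comparison where 3.67% of all genes were called. As ratios of means these were 11.8-fold, 4.16-fold, 5.08-fold and 2.42-fold. Even so, the double knockout held 59.3 normalised counts of Fgf5 at day 0 and 2199 at day 4, whereas its Pou3f1 level of 463 at day 0 overlapped its day 8 level of 478. Among the 5 lines at day 0, the double knockout was the highest in Fgf5 and Pou3f1. Its Otx2 (664 and 586) overlapped that of the gene trap (694 and 508), and its Fgf15 (222 and 210) lay below that of C129 wild type (311 and 386). With the Pali libraries alone, Fgf15 was not called in the double knockout at day 0 (limma adjusted p of 0.0746). Without replicate 1 of day 0, whose description goes against its title, Fgf5, Otx2 and Pou3f1 remained called (adjusted p of 0.0329, 0.00274 and 0.0107), and Fgf15 did not (0.147). The Fgf15 call was also lost without replicate 2 (0.106) and without replicate 1 of the wild type, where the difference was 0.75 (0.368).

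The Pali1 knockout differed from Pali wild type in 2 of the 4 at day 0, where 4.79% of all genes were called. Otx2 was higher by 1.67 on the log2 scale (SE 0.240, limma adjusted p of 0.000592), under every alternative. Fgf15 was higher by 1.22 (SE 0.332, adjusted p of 0.0429), and this call ended under 7 alternatives; without replicate 1 of the wild type the difference was 0.60 (adjusted p of 0.427), and without replicate 1 or 2 of the knockout the adjusted p was 0.0906 or 0.258. Fgf5 differed by 1.03 (SE 0.506, adjusted p of 0.316) and Pou3f1 by -0.02 (SE 0.346). Set against the single knockout directly, the double knockout was higher in Pou3f1, with a log2 difference of 2.35 (SE 0.346, adjusted p of 0.00146), a call kept under all alternatives, where 3.07% of all genes were called. Fgf5 differed by 1.79 (adjusted p of 0.0662), and was called only with the libraries of the Pali lines alone (0.0356). At day 4 and day 8, where 1.38% and 1.37% of genes were called, 0 of 8 member tests between these mutants passed the limma test, and 0 had an unadjusted p under 0.05.

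The 2 wild types also differed at day 0. Otx2 was higher in C129 than in Pali wild type by 1.64 on the log2 scale (SE 0.240, limma adjusted p of 9.73e-05) and Fgf15 by 2.04 (SE 0.332, adjusted p of 0.000284), where 21.1% of all genes were called. The Pali1 knockout and Pali wild type differed by 1.67 and 1.22 in the same genes, and the double knockout and Pali wild type by 2.05 and 1.37. Pou3f1 differed between the wild types by 0.29 (SE 0.346, adjusted p of 0.629) and Fgf5 by 1.25 (adjusted p of 0.0935). At day 4, with 15.9% of genes called, Fgf15 was higher in C129 by 1.10 (adjusted p of 0.0311). That call ended with the libraries of the 2 wild types alone (0.149). It also ended without replicate 1 of C129 or of Pali wild type at day 4 (differences of 0.79 and 0.77). At day 8, with 17.3% called, 0 members passed the limma test, 3 with an unadjusted p under 0.05; Fgf5 was then called lower in C129 without replicate 1 of C129, at -2.36, or without replicate 1 of Pali wild type, at -2.04 (adjusted p of 0.00258 and 0.0298), and Pou3f1 in the latter case, at -1.50 (0.00872). Line and any batch cannot be told apart here.

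For the gene trap against C129 wild type at day 0, where 13.0% of genes were called, 0 of the 4 passed the limma test and 1, Fgf15, had an unadjusted p under 0.05, at -0.81 (SE 0.332, adjusted p of 0.125).

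In double knockout stem cells, where 3.67% of all genes were called, 4 of 25 other primed and formative genes were higher and 0 lower than in Pali wild type, with a median log2 difference of 0.12 beside 0.01 over all genes: Dnmt3l (1.58), a cofactor of DNA methyltransferases, Sall2 (1.53), Pim2 (1.63) and Dnmt3a (0.60). The count was 2 when replicate 1 of the wild type or either double knockout library was left out, and also without the filter on low values or without trend and robust estimation. In Dnmt3l the direction over time was the opposite of the members, since it fell by 1.35 at day 4 in Pali wild type. Of 16 naive genes, 2 were lower, Tfcp2l1 (-1.68) and Klf5 (-0.76), and 0 higher. Markers of other cell types were also higher: 5 of 10 fibroblast genes, with Acta2, which encodes smooth muscle actin, at 257 against 9.21, and 3 of 9 trophoblast genes, the keratin genes Krt8, Krt18 and Krt7, with Krt8 at 1155 against 116. The summed level of the fibroblast list was 5844 and 7489 in the double knockout, 5723 and 6745 in the Pali1 knockout, 2431 and 4628 in Pali wild type, 7542 and 8368 in C129 wild type and 7320 and 10609 in the gene trap. That of the trophoblast list was 3794 and 1689, 2279 and 2112, 1049 and 770, 1503 and 1051, and 1415 and 876 in the same order. The defining trophoblast genes Cdx2, Elf5 and Gata3 reached at most 23.5, 3.39 and 9.77 in the day 0 libraries. For 16 anterior neural genes the sums were 6522 and 6562, 4973 and 5668, 3592 and 4064, 4519 and 4849, and 5842 and 5616 in the same order of lines, highest in the double knockout. For 9 midbrain and hindbrain genes they were 517 and 1397 in the double knockout and 753 and 1559 in Pali wild type, which overlap. The part of these markers in the member differences was not tested.

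At day 4 no member was called between a mutant and its wild type. Of 12 member tests 0 passed the limma test, 1 with an unadjusted p under 0.05, where 2.67% of all genes were called in the Pali1 knockout, 2.07% in the double knockout and 9.01% in the gene trap. That 1 was Otx2 in the gene trap, at 5383 and 4966 against 3164 and 2867 in C129 wild type. Its log2 difference was 0.78 (SE 0.240, adjusted p of 0.0515), and it passed with a pseudocount of 16 (0.0466), with genes filtered at a mean of 50 (0.0402) and with TMM rescaling (0.0499). In the double knockout the day 4 differences were -0.42 for Fgf5, -0.20 for Otx2, 0.18 for Pou3f1 and 0.18 for Fgf15.

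**Figure D3:**
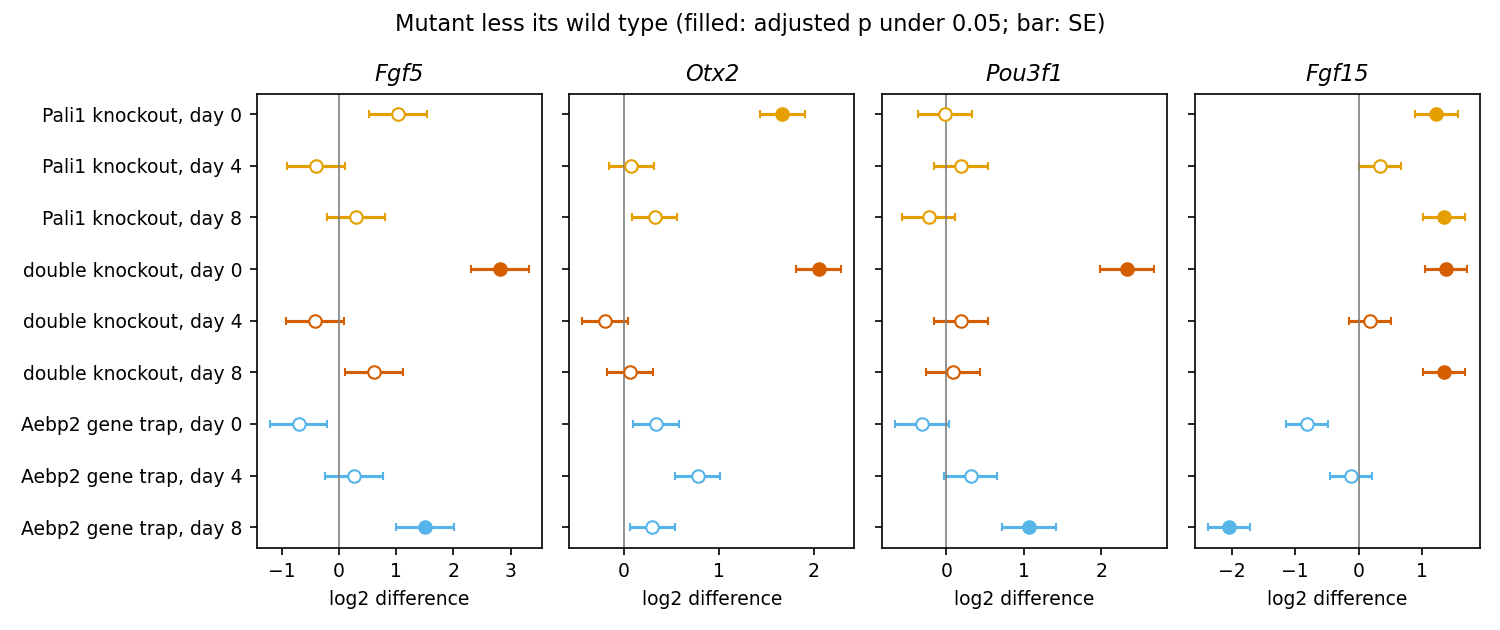
Log2 difference of each mutant less its wild type for each gene (panels) at day 0, 4 and 8 (rows), with bars of 1 SE, filled where the adjusted p is under 0.05. All 4 genes are filled in the double knockout at day 0, none of the 12 day 4 points is filled, and Fgf15 at day 8 is at 1.34 in both knockouts and at -2.05 in the gene trap.

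The change over time was then compared directly, as the mutant's change less that of its wild type. This equals their difference in level at the later day less that at the earlier day. Otx2 levels in the double knockout differed from Pali wild type by 2.05 at day 0. At day 4 and day 8 they differed by -0.20 and 0.06, neither of them called. For Otx2 the rise from day 0 to day 4 was smaller in the double knockout by 2.25 (difference of -2.25, SE 0.340, limma adjusted p of 0.00461) and to day 8 by 1.99 (-1.99, adjusted p of 0.00905), where 0.477% and 1.12% of all genes were called. Both were kept under all alternatives. In the Pali1 knockout the corresponding differences for Otx2 were -1.59 (adjusted p of 0.0493) and -1.35 (adjusted p of 0.0276), where 0.426% and 5.73% were called. The first of these was lost under 14 alternatives and the second under 6, and in most of these cases 1 library less was enough. Pou3f1 levels in the double knockout differed from Pali wild type by 2.34 at day 0 and by 0.08, not called, at day 8. The change of Pou3f1 from day 0 to day 8 thus differed by -2.25 (SE 0.490, limma adjusted p of 0.0359). That call ended with the Pali libraries alone (0.0636). Leaving out any 1 of 6 of the 8 libraries also ended it, with differences from -2.42 to -1.62. From day 0 to day 4, Fgf5 and Pou3f1 in the double knockout differed by -3.23 and -2.15, with adjusted p of 0.0571 and 0.0593. Fgf5 passed with a pseudocount of 1 (0.0357), with genes filtered at a mean of 50 (0.0416) and with the Pali libraries alone (0.0319), and Pou3f1 with that filter (0.0431) and without replicate 2 of Pali wild type at day 0 (0.0419). From day 4 to day 8, 0 of 8 member tests in the Pali mutants passed the limma test, 2 with an unadjusted p under 0.05, where 0.999% of all genes were called in the single and 0.0636% in the double knockout.

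The change of Fgf15 from day 4 to day 8 was lower in the gene trap than in C129 wild type, with a difference of -1.92 (SE 0.469, limma adjusted p of 0.0113), where 13.7% of all genes were called. Without replicate 1 of day 8 of the trap it was -1.80 (adjusted p of 0.0534). Fgf5 differed by 2.22 from day 0 to day 8 (SE 0.716, adjusted p of 0.0449), where 15.3% of all genes were called, and this call was lost under 10 of 18 alternatives, 6 of them with 1 library left out (adjusted p of 0.0859 to 0.249). These were either replicate of the gene trap at day 8, its replicate 2 at day 0, either replicate of C129 at day 0 and replicate 2 of C129 at day 8, without which the difference was 1.23. From day 0 to day 4 none of the 4 members passed, and 0 had an unadjusted p under 0.05, where 1.03% of all genes were called.

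At day 8, Fgf15 was called in all 3 mutants, and not in 1 direction. It was higher by 1.34 in the Pali1 knockout (SE 0.332, limma adjusted p of 0.0113) and by 1.34 in the double knockout (adjusted p of 0.0213), where 13.6% and 7.21% of all genes were called. It was lower by 2.05 in the gene trap (difference of -2.05, adjusted p of 0.000288), where 20.1% were called, and this last call held under all alternatives. With the Pali libraries alone, Fgf15 was not called in the double knockout (adjusted p of 0.0514). The call in the single knockout was lost without replicate 1 of the wild type (1.09, adjusted p of 0.106) or replicate 2 of the knockout (0.0905), and that in the double knockout without any 1 of the 4 libraries (0.0523 to 0.142). Called in the other direction were 2 more members in the trap. Fgf5 was higher by 1.51 (SE 0.506, adjusted p of 0.0436) and Pou3f1 by 1.07 (SE 0.346, adjusted p of 0.0364). Without replicate 2 of C129 wild type, whose Fgf5 value of 163 is the lowest of the 10 day 8 libraries, these were 0.52 (adjusted p of 0.562) and 0.80 (0.255). Leaving out either trap library also ended both calls, at 1.53 and 1.48 for Fgf5 and 1.17 and 0.96 for Pou3f1 without replicate 1 and 2. The Fgf5 call was also lost with a pseudocount of 1 (adjusted p of 0.0595), without the low-value filter (0.0543) and without trend or robust estimation (0.0501). With only the C129 and gene trap libraries its adjusted p was 0.125.

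Genes of the midbrain and hindbrain, where Fgf15 is expressed in the embryo, were counted beside it at day 8. Of 9 tested, 5 were higher in the Pali1 knockout, where 13.6% of all genes were called, with a median log2 difference of 1.65 beside 0.04 over all genes, among them the signal gene Wnt1 (952 against 28.3) and the homeobox genes En2 (933 against 54.2) and En1 (835 against 34.2). The count of 5 became 3 without replicate 2 of the wild type, without replicate 1 of the knockout or with a pseudocount of 1. In the double knockout, where 7.21% were called, 2 of 9 were higher, En2 (305 against 54.2) and Fgf8 (219 against 40.4), and 0 were without replicate 2 of the wild type or replicate 1 of the double knockout at day 8. Of the 9, 4 were lower in the gene trap, where 20.1% were called, Wnt1 at 4.46 against 692 and En1 at 19.5 against 637 among them. The summed level of the list was 349 and 259 in Pali wild type, 2881 and 3630 in the Pali1 knockout, 952 and 797 in the double knockout, 1713 and 1566 in C129 wild type, and 80.9 and 123 in the gene trap. Pali1 and double knockout held nearly equal Fgf15, with means of 1613 and 1615, at unequal levels of this list. Their summed levels of 16 anterior neural genes overlapped, at 12145 and 14586 in the Pali1 knockout and 14425 and 12462 in the double knockout. Those sums were 7248 and 5202 in Pali wild type, 8863 and 9279 in C129 wild type, and 4446 and 6149 in the gene trap. Of 16 anterior neural genes, 6 were higher in each Pali mutant and 9 lower in the gene trap, with the POU factor gene Pou3f2, a relative of Pou3f1, at 626 and 347 against 54.3 and at 12.5 against 365. For the double knockout that count was 2 without replicate 2 of the wild type or replicate 1 of the mutant, and 3 without replicate 2 of the mutant. With genes filtered at a mean of 50, fewer of the list were tested, and the counts were 3 in the Pali1 knockout and 4 in the gene trap. Otx2, which is used in the same tissue, was called in no mutant at day 8 (limma, log2 differences of 0.32, 0.06 and 0.30, 0 of 3 with an unadjusted p under 0.05). The part of these cell types in the Fgf15 difference was not tested.

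Of 16 naive genes at day 8, 10 were lower in the Pali1 knockout, 7 were lower in the double knockout and 13 were higher in the gene trap, where 13.6%, 7.21% and 20.1% of all genes were called. Without replicate 1 or 2 of the double knockout the count of 7 became 4 or 2, and without replicate 1 of Pali wild type the counts of 10 and 7 became 6 and 3. The nearest upstream neighbour of Fgf15, Fgf4, ends 31288 bases before it on the same strand. Fgf4 is a ligand of the naive state and was lower in the Pali1 knockout by 1.24 (difference of -1.24, limma adjusted p of 0.00226) and in the double knockout by 1.11 (-1.11, adjusted p of 0.0105). In the gene trap it was higher by 2.89 (adjusted p of 8.03e-07). In single libraries Fgf4 measured 2040 and 2412 in Pali wild type, 1056 and 832 in the Pali1 knockout, 1101 and 951 in the double knockout, 469 and 269 in C129 wild type, and 2847 and 2486 in the gene trap. Normalised counts of Fgf15 exceeded those of Fgf4 in both libraries of the Pali1 knockout, the double knockout and C129 wild type, and were below them in Pali wild type and the gene trap. Among the other neighbours, Prdm8 beside Fgf5 never exceeded 27.9.

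**Figure D4:**
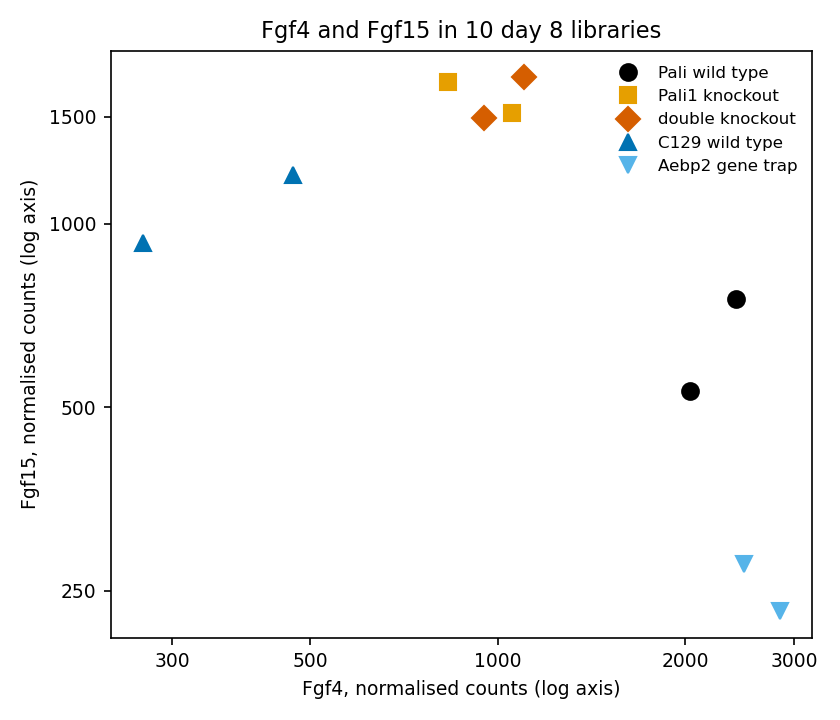
Normalised counts of Fgf15 against those of its neighbour Fgf4 (log axes) in the 10 day 8 libraries, with 1 point per library and 1 symbol per line. The gene trap lies at high Fgf4 and low Fgf15, both knockouts lie above and left of their Pali wild type, and C129 wild type has the lowest Fgf4.

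The genes whose 15 group means were most like a member's, by Pearson correlation on the log2 scale among tested genes with a group mean of at least 100, were as follows. For Fgf5 they were Pcdh1 (r = 0.982), Cxcl12 (0.981), Pim2 (0.974), Cda (0.972) and Arl4c (0.968). Pcdh1, a protocadherin gene, and Pim2 were also among the 5 for Pou3f1 (0.962 and 0.956), after Mmp25 (0.968) and with Moxd1 (0.954) and Foxi3 (0.952). For Otx2 they were Tap2 (0.950), Slc39a8 (0.949), Zfp592 (0.948), Parp10 (0.946) and Ptpn13 (0.944). For Fgf15 they were Timp3, an inhibitor of matrix metalloproteinases (0.927), Pdzrn3 (0.927), Hsd11b2 (0.925), Sema3f (0.923) and Pogk (0.921). No other member was among the 5 of any member.

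Antisense models overlap 2 of the 4 genes, Gm2164 at Pou3f1 and Gm26793 and Gm39119 at Fgf15, and an antisense-oriented noncoding gene, Otx2os1, overlaps Otx2. Otx2os1 lay between 0 and 14.6 in all libraries, and the others were not analysed here. The libraries were made with a strand-marked kit, but no source used here says whether the authors counted by strand.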

How the data were processed

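RNA of 30 libraries was sequenced after depletion of ribosomal RNA, with a strand-marked kit, per the labels' protocols. The authors deposited 1 table of normalised counts, a signal per gene and library; the submitters' processing notes name DESeq2, kallisto 0.43.1, HISAT2 2.0.5 and mm10, without their roles. Low values were whole multiples of 1 read's worth (within 0.001) in 82.3 to 86.1% of cases, so no count model was run, and depth was estimated from those steps. Columns named WT were read as Pali wild type, since C129 has columns of its own. The pairing of the gene trap with C129 follows the order in which the design lists them.

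The members and the 14 gene lists were chosen with earlier results of these data known. Genes that reached a value of 10 in 2 or more libraries, 15712 of 20563 and all 4 members among them, were fitted as log2(value + 4) with limma 3.58.1 in R 4.3.3, with 1 mean for each of 15 groups, 15 residual degrees of freedom, and trend and robust moderation. Each of 39 contrasts was adjusted on its own over all tested genes (Benjamini-Hochberg), with a threshold of 0.05. Lists were described by counts and medians, with no test. Named genes were the members, up to 3 called genes per list and direction with the lowest adjusted p, the 5 genes most like each member (symbols ending in Rik or of Gm models passed over) and nearest neighbours; Pou5f1, Fgf4, the keratins and genes completing a count of 5 or fewer were named beside them, some after their values were seen. The fit was also run on simulated data with normal noise, which cannot show effects of clones or of outlying duplicates. Alternatives were pseudocounts of 1 and 16, other filters, TMM and upper-quartile rescaling, a replicate block, no trend or robust estimation, the compared lines alone, and each library left out.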

Additional observations from a re-analysis of the deposited data

Results flagged for a closer look

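In 7 tests, the change of a member over time differed between a mutant and its wild type (limma, a test of the difference itself). For Otx2 the change in the double knockout less that in Pali wild type was -2.25 on the log2 scale from day 0 to day 4 (adjusted p of 0.00461) and -1.99 to day 8 (0.00905). In the Pali1 knockout these values were -1.59 (0.0493) and -1.35 (0.0276). Pou3f1 differed by -2.25 from day 0 to day 8 in the double knockout (0.0359). In the gene trap less C129 wild type, Fgf5 differed by 2.22 from day 0 to day 8 (0.0449) and Fgf15 by -1.92 from day 4 to day 8 (0.0113). Of these 7, the 2 in Otx2 of the double knockout held under all 18 alternatives. Those in Otx2 of the Pali1 knockout were lost under 14 and 6 of 18, Pou3f1 under 7, Fgf5 under 10 and Fgf15 under 1. Of all tested genes, 0.477% and 1.12% were called in the double knockout to day 4 and to day 8. In the Pali1 knockout these shares were 0.426% and 5.73%. For the gene trap, 15.3% were called from day 0 to day 8 and 13.7% from day 4 to day 8. The 5 Pali differences share the Pali wild type day 0 libraries, which held the lowest Otx2 of all 5 lines. At day 4 and day 8, no level of Otx2 or Pou3f1 was called between a Pali mutant and its wild type. For Pou3f1, the Pali wild type mean of 91.1 at day 0 lay beside 88.9 in the Pali1 knockout, 89.6 in the gene trap and 111 in C129 wild type. The double knockout held 463.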

How the results depend on the processing

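Of 69 called member tests, 48 kept their call under every alternative, 21 lost it under at least 1, and 0 changed sign. Sign changes, 61 with 1 library left out and 7 with all libraries, were seen only in tests with an unadjusted p of 0.05 or more. With only the libraries of the compared lines, calls of mutant against wild type went from 11 to 7 and those of double against single knockout from 1 to 2. With 1 library left out, the calls ran from 43 to 49 for time (47 with all), 8 to 12 for mutant against wild type, 1 to 1 for double against single knockout, 2 to 5 for C129 against Pali wild type (3 with all, and 5 without replicate 1 of day 8 of either) and 4 to 10 for differences of changes (7 with all). That last count was 4 without replicate 1 of the gene trap at day 8, either replicate of the double knockout at day 0, either of the Pali1 knockout at day 4, or its replicate 1 at day 0. Leaving out a library whose partner then stands alone assumes that it varies like the other groups. Libraries with the same replicate number did not deviate together (correlations of -0.03 to 0.05 within lines and of -0.06 to 0.11 within days). Under the replicate block, common to all lines or within lines, no count of calls moved by over 1.5 times. Single calls that changed were Otx2 in both differences of the Pali1 knockout (within lines; adjusted p of 0.0866 and 0.0530, lost), and, gained under both blocks, Pou3f1 in the change of the double knockout less that of Pali wild type from day 0 to day 4 (0.0497 and 0.0494). The within-line block also called Pou3f1 (0.0433) and Fgf15 (0.0202) in the change of the gene trap less that of C129 wild type from day 0 to day 8, and Fgf15 in the gene trap against C129 wild type at day 0 (0.0326) and in C129 against Pali wild type at day 8 (0.0402). All values are relative to the authors' normalisation, and 2 libraries per group limit the precision.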

Other observations

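Otx2 is also used in the anterior visceral endoderm, the tissue that patterns the head end of the embryo. At day 8, 6 of 7 genes of the anterior visceral endoderm were higher in the Pali1 knockout than in Pali wild type (limma, adjusted p under 0.05), with a median log2 difference of 2.77 over the list beside 0.04 over all tested genes. Foxa2, a forkhead factor gene, stood at 671 against 53.3 normalised counts and Dkk1, a secreted WNT inhibitor, at 616 against 66.5. That count was 6 whichever of the 4 libraries was left out. In the double knockout 5 of 7 were higher, and 0 without replicate 2 of Pali wild type or replicate 2 of the double knockout. In the gene trap 6 were lower than in C129 wild type, among them Foxa2 at 12.6 against 458, and Lefty1, an inhibitor of NODAL, was higher at 1875 against 527. Of all tested genes, 13.6%, 7.21% and 20.1% were called in the Pali1 knockout, the double knockout and the gene trap. The summed level of the list overlapped between each mutant and its wild type. It was 4029 and 3458 in Pali wild type, 5343 and 3885 in the Pali1 knockout and 3593 and 5538.5 in the double knockout. C129 wild type held 1874 and 2201, and the gene trap 2210 and 1823. Several of these genes are also expressed in the node and in definitive endoderm. Otx2 itself was called in none of these 3 comparisons.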
